A study of Mus musculus with 4 samples.

Results

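The 10 Sox genes described here belong to the SoxB (Sox1, Sox2, Sox3, Sox21), SoxC (Sox4, Sox11), SoxD (Sox5, Sox6) and SoxE (Sox9, Sox10) classes. They were taken by name, with earlier results of these data known, from 12740 genes that could be tested on an Affymetrix mouse expression array. All 10 had a probe set, the group of short probes that reads one transcript, above the filter on low values. Each gene was represented by its brightest probe set with a single gene symbol, by the mean over the 4 arrays, and the other probe sets of the gene were read as a check. The 10 genes had 38 probe sets in all, of which 27 passed the filter. RNA came from GFP-sorted cells of the neural tube, dissected between the limb levels, of mouse embryos at E10.5 on a mixed B6SJLF1 and ICR background. In Atoh1-GFP samples (2 arrays, transgene Atoh1BAC-GFP), a bacterial artificial chromosome with the Atoh1 locus drives GFP in the lineage of dorsal interneuron 1 (dI1). In dNeurog1-GFP samples (2 arrays), a Neurog1 enhancer drives GFP in the lineage of dorsal interneuron 2 (dI2). Each sort can hold cells of several stages, and fewer cells of a stage and less RNA per cell cannot be told apart. Which gate of the sort was hybridised is not spelled out in the labels, and the samples are read here as GFP-positive.

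Sox proteins are transcription factors that bind DNA through a high-mobility-group box. In the neural tube the SoxB1 proteins Sox1, Sox2 and Sox3 keep cells in the progenitor state, while Sox21, a SoxB2 protein, acts against them and promotes exit from it. SoxC proteins rise as neurons are born and turn on neuronal genes. SoxE proteins serve neural stem cells, neural crest and glia, and SoxD proteins, which lack a transactivation domain of their own, modulate the others.

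Signals are MAS5 intensities, set here to one trimmed mean of 500 on each array, since the replicate 1 arrays had been deposited at a trimmed mean of 250 and the replicate 2 arrays at 500. Differences are given on log2(signal + 32) as Atoh1-GFP minus dNeurog1-GFP, which understates the change of dim genes, and a difference was called at a limma p-value, adjusted over all genes, under 0.05. Each scaling target held 1 array of each population, so the replicate number was also fitted as a block and the difference of each of the 10 Sox genes is also given within replicate 1 and within replicate 2. The labels call the arrays of a population biological replicates, and the numbers are not said to mark a shared litter or day. With 2 arrays against 2 an exact permutation test cannot go below p = 0.33, so none is given. The populations matched their labels. The dI1 markers Atoh1, Barhl1, Barhl2, Lhx2 and Lhx9 were all higher in Atoh1-GFP cells, with a median log2 difference of 3.14 and 5 of 5 called with the block. Of 6 dI2 markers, Neurog1, Neurog2, Lhx1 and Lhx5 were lower and called with the block, while Foxd3 (-1.19) and Foxp2 (0.13) were not.

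With the replicate number as a block, 6 of the 10 Sox genes were called, 5 lower and 1 higher in Atoh1-GFP cells. The same model called 6.51% of all genes tested, 3.73% lower and 2.78% higher. In simulated data this model made more false calls than its adjusted p allows, so a call with the block is less certain than its adjusted p states. Without the block limma called 0 of the 10, against 0.22% of all genes, and 6 of the 10 had an unadjusted p under 0.05, against 8.59% of all genes. The arrays of the populations did not overlap for 6 of the 10 Sox genes, against 34.7% of all genes. The direction was the same within both replicate numbers for 9 of the 10, against 67% of all genes, and 3 of the 10 differed by at least 1 log2 unit within both, against 2.26%. In the plot of signals by array, the called genes that were lower in Atoh1-GFP cells are all SoxB genes except Sox2, with Sox6 of the SoxD and Sox9 of the SoxE class, and the one that was higher is Sox11 of the SoxC class.

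**Figure D1:**
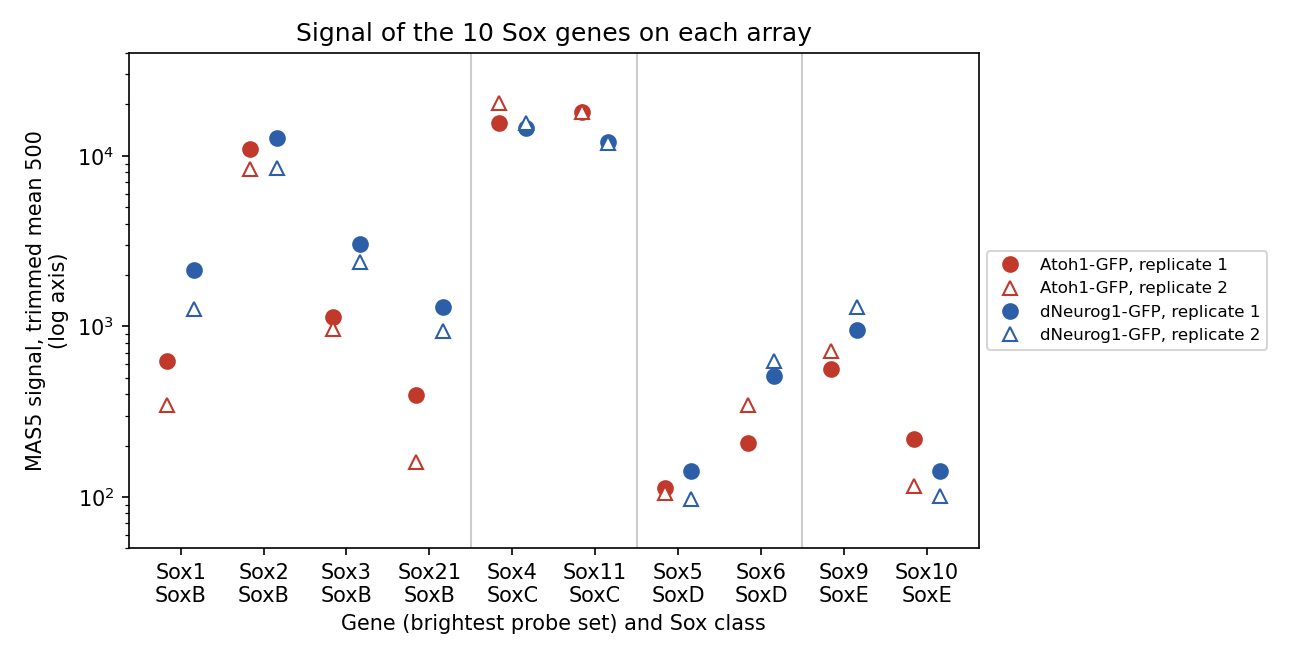
MAS5 signal (log axis, arrays set to a trimmed mean of 500) of the brightest probe set of each of the 10 Sox genes, with Atoh1-GFP arrays in red on the left and dNeurog1-GFP arrays in blue on the right; circles are replicate 1 and triangles replicate 2. The Atoh1-GFP arrays lie below both dNeurog1-GFP arrays for Sox1, Sox3, Sox21, Sox6 and Sox9 and above both for Sox11.

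Promoter sequences are shown for the 2 SoxB genes with the largest differences and for both SoxC genes, since these groups differed in opposite directions. RefSeq promoter windows (GRCm38.p6) were found for 7 of the 10 genes and were lacking for Sox3, Sox9 and Sox10. The windows of Sox2, Sox5 and Sox6 were read but are not printed. Each line gives the 250 bases before the annotated start, 5′ to 3′, and capitals mark every E-box (CANNTG, the site class bound by basic helix-loop-helix proteins such as Atoh1 and Neurog1).
Sox1: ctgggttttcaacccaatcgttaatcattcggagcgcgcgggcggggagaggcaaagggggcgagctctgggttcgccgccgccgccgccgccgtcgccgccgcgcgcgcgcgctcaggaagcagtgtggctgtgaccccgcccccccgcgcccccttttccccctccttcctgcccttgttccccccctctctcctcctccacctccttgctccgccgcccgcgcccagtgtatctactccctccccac
Sox21: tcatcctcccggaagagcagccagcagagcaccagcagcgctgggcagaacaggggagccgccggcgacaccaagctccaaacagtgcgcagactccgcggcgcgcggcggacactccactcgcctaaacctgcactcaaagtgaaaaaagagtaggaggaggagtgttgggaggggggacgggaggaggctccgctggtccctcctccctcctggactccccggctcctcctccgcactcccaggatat
Sox4: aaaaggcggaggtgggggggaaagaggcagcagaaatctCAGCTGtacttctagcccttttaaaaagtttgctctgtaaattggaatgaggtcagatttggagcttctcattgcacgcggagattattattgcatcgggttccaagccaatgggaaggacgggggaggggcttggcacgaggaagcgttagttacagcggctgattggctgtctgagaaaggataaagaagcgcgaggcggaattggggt
Sox11: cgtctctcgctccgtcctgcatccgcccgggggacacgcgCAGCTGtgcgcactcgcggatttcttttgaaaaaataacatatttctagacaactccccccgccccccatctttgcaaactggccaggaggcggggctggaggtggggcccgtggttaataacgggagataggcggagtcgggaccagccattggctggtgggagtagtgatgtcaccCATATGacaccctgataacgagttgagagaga

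These windows lie at chr8:12395269-12395518 (plus strand), chr14:118237031-118237280 (minus strand), chr13:28953700-28953949 (minus strand) and chr12:27342719-27342968 (minus strand). The Sox4 window held 1 E-box, CAGCTG, which begins 211 bases before the start. The Sox11 window held 2, CAGCTG beginning 210 bases and CATATG beginning 32 bases before the start. The Sox1, Sox21, Sox2 and Sox5 windows held 0. All 6 alternative windows of Sox6, which was lower in Atoh1-GFP cells, held 1 to 3, with CAGCTG in 1 of them, so windows with an E-box were found for a lower gene as well as for Sox4 and Sox11. Over all 32851 windows of this length, 66.2% held at least 1 E-box and 13% held CAGCTG, a subset of the E-boxes that reads the same on both strands. A Sox-type motif (AACAAAG or AACAATG, either strand) was in 8.12% of all windows and a POU octamer (ATGCAAAT, either strand) in 1.6%, and neither was in the windows of Sox1, Sox2, Sox21, Sox4, Sox11 or Sox5. The Sox-type motif was in 4 of the 6 Sox6 windows and the octamer in 0. A match is a description of letters and not of binding.

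The SoxB genes split into 3 that were several-fold lower in Atoh1-GFP cells and 1, Sox2, for which no difference was called. Sox1 (chromosome 8, 12395519 to 12399555), a SoxB1 progenitor factor, gave signals of 624 and 346 in Atoh1-GFP cells, against 2133 and 1261 in dNeurog1-GFP cells. Both Atoh1-GFP arrays lay below both dNeurog1-GFP arrays, by factors of 3.42 and 3.64 within replicates 1 and 2. The log2 difference was -1.75 (-1.72 within replicate 1 and -1.77 within replicate 2), with a standard error of 0.13 with the block (limma adjusted p = 0.0037) and 0.37 without it (adjusted p = 0.16). Its second probe set was below the filter.

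Sox3 (chromosome X, 60891366 to 60893430), another SoxB1 factor of neural progenitors, gave signals of 1130 and 966 in Atoh1-GFP cells, against 3031 and 2376 in dNeurog1-GFP cells. The populations did not overlap, and the log2 difference was -1.33 (-1.40 and -1.27 within replicates 1 and 2). It was called with the block (standard error 0.12, limma adjusted p = 0.0050) and not without it (0.24, adjusted p = 0.11). The second, dimmer Sox3 probe set pointed the same way at -0.91 and overlapped between the populations. Sox3 is X-linked, and the arrays differed in sex-linked transcripts. The Y-linked gene Eif2s3y gave signals of 795 and 839 in Atoh1-GFP cells, against 1.88 and 968 in dNeurog1-GFP cells. Kdm5d, also Y-linked, was likewise low on the dNeurog1-GFP replicate 1 array alone (513 and 851 in Atoh1-GFP cells, against 10.7 and 769 in dNeurog1-GFP cells). Xist, the X-inactivation RNA of female cells, gave 9055 and 8725 in Atoh1-GFP cells, against 10964 and 6990 in dNeurog1-GFP cells. The part of embryo sex in the Sox3 values was not tested.

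Sox21 (chromosome 14, 118233233 to 118237030), the SoxB2 counterpart of the SoxB1 factors, had the largest difference of the 10 genes. Its signals were 394 and 161 in Atoh1-GFP cells, against 1291 and 934 in dNeurog1-GFP cells. Neither Atoh1-GFP array reached the lower dNeurog1-GFP array, and the log2 difference was -1.98 (-1.63 and -2.32 within replicates 1 and 2). With the block the standard error was 0.21 and the limma adjusted p 0.0077, and without it they were 0.40 and 0.15. A second probe set had 124 and 5.84 in Atoh1-GFP cells, against 715 and 297 in dNeurog1-GFP cells, and pointed the same way at -2.69. Among all 12740 differences ordered from the lowest, Sox21 stood at 39, Sox1 at 48 and Sox3 at 121.

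Sox2 (chromosome 3, 34649995 to 34652461), the SoxB1 factor shared by progenitors along the whole neural tube, did not follow the other 3. It gave signals of 10915 and 8368 in Atoh1-GFP cells, against 12677 and 8442 in dNeurog1-GFP cells. The arrays overlapped, with both replicate 1 arrays above both replicate 2 arrays. The log2 difference was -0.11 (-0.22 and -0.01 within replicates 1 and 2), with a 95% interval of -0.42 to 0.19 with the block (limma adjusted p = 0.64) and -0.71 to 0.48 without it (adjusted p = 1). Both intervals leave out a difference as large as those of Sox1, Sox3 and Sox21, and 1 probe set is all the array offers for Sox2. The mean difference of those 3 genes minus that of Sox2 was -1.37 log2 units within replicate 1 and -1.78 within replicate 2, values that do not depend on how the arrays are scaled apart from the pseudocount. This contrast between genes was not tested. Its 2 sides were chosen after their values were seen, so a gap of this sign follows from the choice. Sox2ot, the long non-coding RNA whose gene spans Sox2 (chromosome 3, 34560381 to 34677993) and which was looked up after the Sox2 values were seen, gave signals of 273 and 271 in Atoh1-GFP cells, against 778 and 504 in dNeurog1-GFP cells. The Sox2ot difference of -1.12 was called with the block (limma adjusted p = 0.036) and not without it (adjusted p = 0.25).

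**Figure D2:**
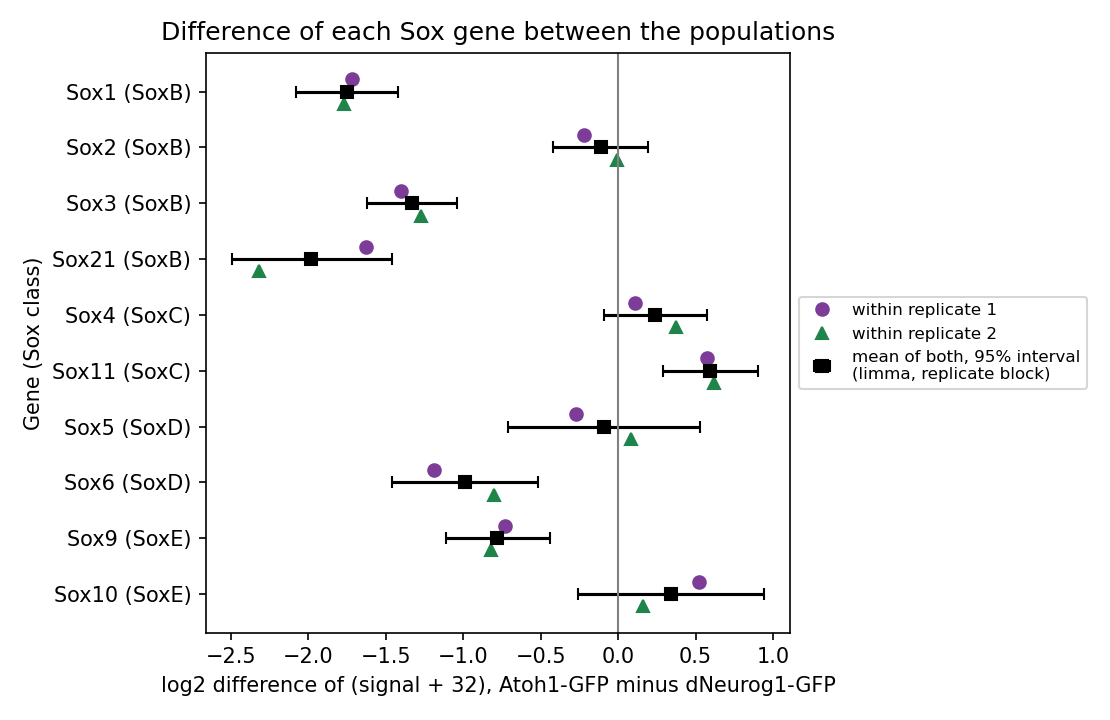
Log2 difference of (signal + 32), Atoh1-GFP minus dNeurog1-GFP, for each Sox gene; circles and triangles are the differences within replicates 1 and 2, squares their mean, and bars the 95% interval of the limma model that has the replicate number as a block. The intervals of Sox1, Sox3, Sox21, Sox6 and Sox9 lie below 0 and that of Sox11 above it, and those of Sox2, Sox4, Sox5 and Sox10 include 0.

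Both SoxC genes, which promote neuronal gene expression in newborn neurons, had higher values in Atoh1-GFP cells in replicates 1 and 2 alike, and their probe sets disagreed on the size. Sox11 (chromosome 12, 27334268 to 27342718) gave signals of 17955 and 18151 in Atoh1-GFP cells, against 12048 and 11837 in dNeurog1-GFP cells. The replicates of each population lay close together and the populations did not overlap. The log2 difference was 0.59 (0.57 and 0.62 within replicates 1 and 2), with a standard error of 0.12 with the block (limma adjusted p = 0.047, just under the threshold) and 0.15 without it (adjusted p = 0.25). All 6 Sox11 probe sets were positive, with log2 differences of 0.25 to 0.84 and no overlap of the populations. In the model of single probe sets with the block, where 7.98% of 27022 probe sets were called (4.02% higher and 3.96% lower in Atoh1-GFP cells), 3 of these 6 were called.

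Sox4 (chromosome 13, 28948919 to 28953699) gave signals of 15630 and 20244 on its brightest probe set in Atoh1-GFP cells, against 14465 and 15644 in dNeurog1-GFP cells. The populations overlapped slightly, and the log2 difference of 0.24 (0.11 and 0.37 within replicates 1 and 2) was not called (95% interval -0.09 to 0.57 and limma adjusted p = 0.36 with the block; adjusted p = 0.93 without it). The next 3 probe sets of Sox4 by brightness gave larger values. On the second, the signals were 3510 and 6132 in Atoh1-GFP cells, against 1914 and 3293 in dNeurog1-GFP cells. The third had 3430 and 4753 in Atoh1-GFP cells, against 1791 and 2263 in dNeurog1-GFP cells. The fourth had 2949 and 2091 in Atoh1-GFP cells, against 1542 and 973 in dNeurog1-GFP cells. Their log2 differences were 0.88, 0.99 and 1.00, and each was called in the model of single probe sets with the block (limma adjusted p = 0.0023, 0.0013 and 0.0016). In all, 6 of 6 Sox4 probe sets above the filter were positive, between 0.11 and 1.23, and 4 of them were called with the block. The call for Sox4 therefore depends on the probe set, and the brightest one is among the 2 with the smallest difference. Why they disagree was not tested.

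**Figure D3:**
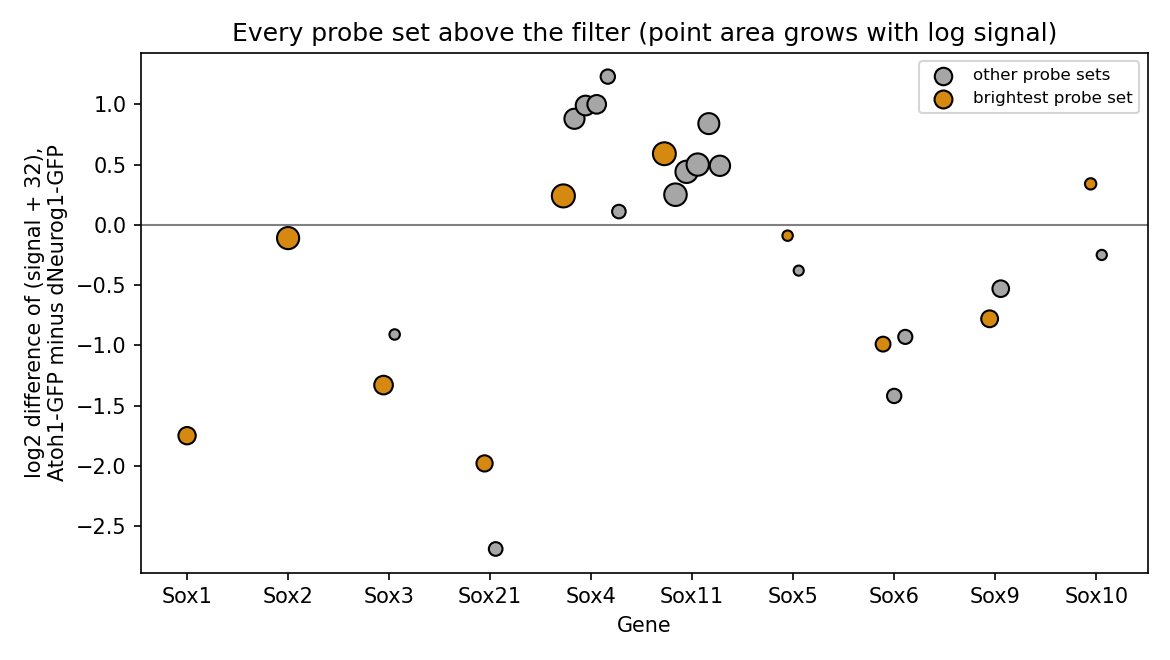
Log2 difference of (signal + 32), Atoh1-GFP minus dNeurog1-GFP, of the 27 probe sets of the Sox genes above the filter, 1 point per probe set, with the brightest of each gene in orange and the others in grey. All Sox4 and Sox11 points lie above 0 (0.11 to 1.23 and 0.25 to 0.84), all Sox21, Sox3, Sox6 and Sox9 points lie below it, and the Sox10 points lie on both sides (-0.25 and 0.34).

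Sox1, Sox3 and Sox21, the SoxB genes that were low, stood apart from the SoxC genes within both replicate numbers. Sox2, which gave -0.22 and -0.01, is left out of this mean, whose members were chosen after their values were seen. The mean difference of Sox1, Sox3 and Sox21 was -1.59 within replicate 1 and -1.79 within replicate 2, and that of Sox4 and Sox11 was 0.34 and 0.49. The gap was -1.93 and -2.28 log2 units, given here as a description.

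Of the SoxD genes, Sox6 was lower in Atoh1-GFP cells and Sox5 was dim. Sox6 (chromosome 7, 115470872 to 116040776), known from the oligodendrocyte lineage as a factor that holds back differentiation, gave signals of 208 and 347 in Atoh1-GFP cells, against 514 and 627 in dNeurog1-GFP cells. The populations did not overlap. The log2 difference was -0.99 (-1.19 and -0.80 within replicates 1 and 2), called with the block (standard error 0.19, limma adjusted p = 0.039) and not without it (0.31, adjusted p = 0.35). All 3 Sox6 probe sets above the filter were lower, by log2 differences of -0.93 to -1.42, and all 3 were called with the block in the model of single probe sets. Sox5 (chromosome 6, 143828425 to 144782287), which can pair with Sox6, gave signals of 113 and 105 in Atoh1-GFP cells, against 142 and 97.4 in dNeurog1-GFP cells. The signals overlapped and stood near the filter value of 63.5. The log2 difference was -0.09 (-0.27 and 0.08 within replicates 1 and 2, so the sign differed; 95% interval -0.71 to 0.53 with the block, limma adjusted p = 0.86), and 5 of its 7 probe sets were below the filter.

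Of the SoxE genes, Sox9 was lower in Atoh1-GFP cells and Sox10 was dim. Sox9 (chromosome 11, 112782210 to 112787757), a factor of neural stem cells and of the later switch to glia, also used by cartilage and neural crest, gave signals of 560 and 720 in Atoh1-GFP cells, against 951 and 1296 in dNeurog1-GFP cells. The populations did not overlap, and the log2 difference was -0.78 (-0.73 and -0.82 within replicates 1 and 2). It was called with the block (standard error 0.14, limma adjusted p = 0.031) and not without it (0.27, adjusted p = 0.43). The second Sox9 probe set, with 685 and 639 in Atoh1-GFP cells, against 1033 and 915 in dNeurog1-GFP cells, gave -0.53 (limma adjusted p = 0.066 with the block). Sox10 (chromosome 15, 79154913 to 79164490), a defining factor of neural crest and oligodendrocytes, gave signals of 218 and 116 in Atoh1-GFP cells, against 142 and 101 in dNeurog1-GFP cells. The arrays overlapped, and the log2 difference of 0.34 (0.52 and 0.16 within replicates 1 and 2) was not called (95% interval -0.26 to 0.94 with the block, limma adjusted p = 0.47). On a second Sox10 probe set the signals were 36.0 and 97.7 in Atoh1-GFP cells, against 6.81 and 291 in dNeurog1-GFP cells, so the replicates of one population differed more than the populations.

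Other cell types that use SoxE genes were read through their markers. Of 8 tested neural crest and glial markers, 1 was called with the block, Ednrb, the endothelin receptor B gene, which was lower in Atoh1-GFP cells (1146 and 562, against 5728 and 3467 in dNeurog1-GFP cells; log2 difference -2.42, limma adjusted p = 0.0015 with the block and 0.087 without it). With the block 6.51% of all genes were called, so 1 call among 8 is not read as a result about the list. The median difference of these markers was 0.57 in replicate 1 and -0.70 in replicate 2, with summed signals of 4352 and 4494 in Atoh1-GFP cells, against 7973 and 7570 in dNeurog1-GFP cells. Without Ednrb the sums over the other 7 markers were 3207 and 3932 in Atoh1-GFP cells, against 2245 and 4103 in dNeurog1-GFP cells, so their direction differed between the replicate numbers. Foxd3, an early neural crest factor also used by dI2 neurons, had 133 and 94.3 in Atoh1-GFP cells, against 210 and 415 in dNeurog1-GFP cells. Of 12 mesenchyme and cartilage markers 0 were called in either limma model, and 1, Col2a1, had an unadjusted p under 0.05 in each (8.59% of all genes did so without the block and 22.5% with it). Their differences had a median of 0.74 in replicate 1 and -0.40 in replicate 2, and their summed signals were 8007 and 5559 in Atoh1-GFP cells, against 4628 and 9244 in dNeurog1-GFP cells. Col2a1, a cartilage collagen and known Sox9 target that the neural tube also expresses, gave signals of 1002 and 848 in Atoh1-GFP cells, against 1366 and 1687 in dNeurog1-GFP cells (log2 difference -0.70, limma adjusted p = 0.065 with the block). The part of other cell types in the SoxE values was not tested.

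The remaining Sox genes gave no calls. Of 10 listed, 6 passed the filter and 0 of them were called in either limma model (0 at an unadjusted p under 0.05 without the block and 2, Sox13 and Sox18, with it, against 22.5% of all genes), with a median log2 difference of 0.29 against 0.01 over all genes. Sox12, the third SoxC gene, gave signals of 1478 and 1003 in Atoh1-GFP cells, against 1384 and 851 in dNeurog1-GFP cells (log2 difference 0.16). Sox13, the third SoxD gene, had 510 and 605 in Atoh1-GFP cells, against 654 and 835 in dNeurog1-GFP cells (-0.39, limma adjusted p = 0.20 with the block). Sox8, the third SoxE gene, had 53.2 and 43.0 in Atoh1-GFP cells, against 74.5 and 84.4 in dNeurog1-GFP cells (-0.48). The populations did not overlap for Sox13 and Sox8, nor for Sox7, Sox17 and Sox18, which pointed the other way. Over all genes 34.7% did not overlap, and none of these Sox genes was called. The endothelial SoxF genes Sox7, Sox17 and Sox18 had log2 differences of 0.43, 0.55 and 1.14, and Sox18 had 131 and 100 in Atoh1-GFP cells, against 6.82 and 82.6 in dNeurog1-GFP cells. The differences of 7 endothelial markers had a median of 1.05 in replicate 1 and 0.33 in replicate 2, with summed signals of 2028 and 990 in Atoh1-GFP cells, against 960 and 852 in dNeurog1-GFP cells, and limma called 0 of them in either model (0 at an unadjusted p under 0.05 without the block and 4 with it, against 22.5% of all genes). Their part in the SoxF values was not tested. Sry, Sox14, Sox15 and Sox30 were below the filter.

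Genes that work beside the SoxB proteins in progenitors leaned, in their median, the same way as Sox1, Sox3 and Sox21 but less far. Of 19 tested partners and progenitor genes, 6 were lower and 1 was higher in Atoh1-GFP cells under the block and 12 were not called. Over all genes tested, 3.73% were called lower and 2.78% higher under the block. Without the block limma called 0, with 6 at an unadjusted p under 0.05, against 8.59% of all genes. Their median difference was -0.40 (-0.61 in replicate 1 and -0.11 in replicate 2), against 0.01 over all genes. Pax6, a homeodomain factor that acts with Sox2 on shared enhancers, gave signals of 541 and 565 in Atoh1-GFP cells, against 1568 and 1951 in dNeurog1-GFP cells (log2 difference -1.61, limma adjusted p = 0.0046 with the block). Fabp7, a radial glial lipid carrier, had 4411 and 2929 in Atoh1-GFP cells, against 13102 and 7773 in dNeurog1-GFP cells (-1.48). The Notch effector Hes1 (-1.06), cyclin D1, Ccnd1 (-0.66), and the RFX-family factor gene Rfx4 (-0.61) were also lower with the block. Pou3f1, a POU factor of the family that pairs with SoxB proteins, was the one called higher, with 4526 and 5824 in Atoh1-GFP cells, against 1443 and 2122 in dNeurog1-GFP cells (1.54, limma adjusted p = 0.0035 with the block). Within both replicate numbers 12 of the 19 were lower and 3 were higher. Of all 12740 genes, 4293 were lower and 4242 higher within both. The 3 higher were Pou3f1, Nes (0.40) and Chd7 (0.35), of which Nes and Chd7 were not called. Pou3f2 (0.29), Pou3f3 (-0.06), Vim (-0.05) and Msi1 (-0.09) differed in sign between the replicate numbers and were not called.

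Genes that accompany or follow SoxC activity in newborn neurons leaned toward Atoh1-GFP cells. Of 20 tested, limma with the block called 7 higher (against 2.78% of all genes), 0 lower (against 3.73%) and left 13 uncalled. Without the block limma called 0, with 10 at an unadjusted p under 0.05, against 8.59% of all genes. Their median difference was 0.53 (0.63 in replicate 1 and 0.41 in replicate 2), against 0.01 over all genes. Tubb3, the neuronal beta-tubulin and a SoxC target, gave signals of 10017 and 13976 in Atoh1-GFP cells, against 4644 and 7348 in dNeurog1-GFP cells (log2 difference 1.01, limma adjusted p = 0.011 with the block). Insm1, a zinc finger factor of newly committed neurons, had 4153 and 4942 in Atoh1-GFP cells, against 1893 and 2117 in dNeurog1-GFP cells (1.17). Dcx (0.99) and Map2 (0.72), which encode microtubule-associated proteins, the RNA-binding protein gene Elavl3 (0.77) and the zinc finger gene Myt1 (0.74) were also higher with the block. Within both replicate numbers 16 of the 20 were higher and 2 were lower. Of all 12740 genes, 4242 were higher and 4293 lower within both. The 2 lower were Neurod1 (-0.65, limma adjusted p = 0.052 with the block) and Neurod4 (-0.59), neither called. Gap43 (-0.61) and Mapt (-0.26) had negative means, with a sign that differed between the replicate numbers.

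**Figure D4:**
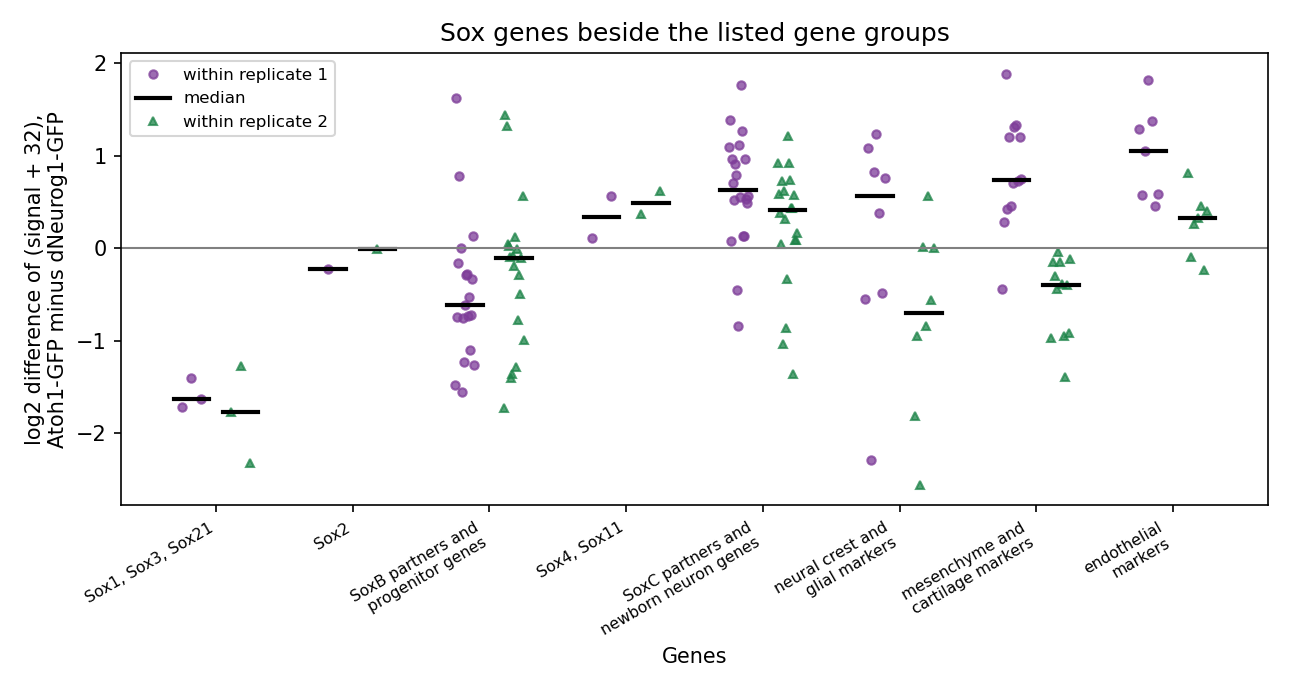
Log2 difference of (signal + 32), Atoh1-GFP minus dNeurog1-GFP, of Sox genes and of the listed gene groups, 1 point per gene, circles within replicate 1 and triangles within replicate 2, with black bars at the medians. Progenitor genes have medians of -0.61 and -0.11, newborn neuron genes 0.63 and 0.41, and endothelial markers 1.05 and 0.33. The medians of the mesenchyme list (0.74 and -0.40) and of the neural crest and glial list (0.57 and -0.70) change sign between the replicate numbers.

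The genes with the most similar profile over the 4 arrays were found by the Euclidean distance of log2(signal + 32), centred on each gene's mean, as a description. For Sox1 they were the Iroquois homeobox gene Irx5 (distance 0.28), Fabp7 (0.31) and the Wnt ligand gene Wnt7b (0.31). For Sox11 they were Chn1 (0.02), which encodes a Rac GTPase-activating protein of axons, Crebrf (0.03) and Ssbp3 (0.04), a cofactor gene of LIM-homeodomain complexes. For Sox9 they were the nuclear pore gene Nup210 (0.03), Rfc1 (0.05), a subunit of the clamp loader of DNA replication, and Fez1 (0.07). Irx5, the nearest to Sox1, gave signals of 404 and 254 in Atoh1-GFP cells, against 1789 and 1056 in dNeurog1-GFP cells. With only 4 arrays many genes share such a profile.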

How the data were processed

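The authors deposited 1 linear MAS5 intensity per probe set and array (45101 probe sets, 4 arrays). MAS5 is named in the submitters' processing notes, without a version or settings. No detection calls were used. Each array was multiplied to a common trimmed mean of 500, leaving out 2% at each end, which doubled the replicate 1 arrays. The 64 control probe sets were left out. Probe sets with a mean at or above the 40th percentile (63.5) were kept, 27022 of 45037. Of the 45037, 34945 had 1 gene symbol, 932 several and 9160 none. The reference table matched 34741 single symbols by gene identifier and changed 0.

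Differences on log2(signal + 32) were fitted with limma 3.58.1 in R 4.3.3 (lmFit, then eBayes with a trend in intensity) over 12740 genes with Benjamini-Hochberg adjustment, once with no block and once with replicate number as the block. The residual degrees of freedom per gene were 2 and 1, so p-values rest largely on spread shared across genes, and the number of arrays limits precision. Where the adjusted p of 1 is printed, it is rounded. Both models were run on simulated data that carried the observed difference between replicate numbers and the spread of the model with the block. The block was thus true there by construction, so the run cannot show whether it holds for the real arrays. In that setting the model without the block missed nearly all changed genes. The model with it found most of them, with a share of false calls above the threshold set for it. The members, lists and tests were chosen with earlier results of these data known. Named genes were all Sox genes, the dI1 and dI2 markers, up to 6 of each other list with called ones first, and the 3 genes nearest in profile to Sox1, Sox11 and Sox9. Genes of the progenitor and newborn neuron lists whose mean difference went against the list, or whose sign differed between the replicate numbers, were named in addition. Sox2ot, Xist and the Y-linked genes were added after values were seen. Alternatives covered scaling, pseudocount, filter, probe set choice, the block and leaving out each array. Gene positions and promoters are from RefSeq tables of GRCm38.p6.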

Additional observations from a re-analysis of the deposited data

How the results depend on the processing

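Among the settings with all 4 arrays, Sox genes were called only with the replicate number as a block. Same-numbered arrays deviated together across genes (Pearson's r = 0.66 after scaling and 0.71 as deposited, over genes, which are not independent), and with only 2 pairs and no label saying so this does not establish a pairing. With the replicate block 829 genes and 6 of the 10 Sox genes were called, and as deposited with the block 1169 and 6, against 28 and 0 without it. Without the block, 13 genes were called as deposited (1 higher and 12 lower in Atoh1-GFP cells, against 16 and 12 in the main setting), 18 on one 75th percentile (7 and 11), 14 with no filter, 18 with a filter at the 60th percentile and 12 with the mean over all probe sets, and 0 Sox genes in each. Quantile normalization and pseudocounts of 16 and 64 gave 26, 27 and 28 genes and 0 Sox genes. Leaving out 1 array at a time gave 153 to 380 genes and 1 to 3 Sox genes without the block. Sox21 was called in each of these 4 fits, and Sox1 and Sox3 in all but the one without dNeurog1-GFP replicate 1. These fits keep 1 residual degree of freedom, assume that the lone array varies like the other group, and cannot carry the block. The signs of Sox1, Sox3, Sox21, Sox4, Sox11, Sox6 and Sox9 were the same in all 17 settings run for each, with ranges of -2.15 to -0.95, -1.51 to -1.12, -2.55 to -1.41, 0.06 to 0.72, 0.49 to 0.61, -1.32 to -0.66 and -0.99 to -0.38. Of the genes without a called difference, Sox4 kept its sign, and Sox2, Sox5 and Sox10 turned. Sox2 was 0.08 without Atoh1-GFP replicate 2 and 0.18 without dNeurog1-GFP replicate 1. Sox5 was 0.11 with the mean over all probe sets and ran from -0.31 to 0.12 when 1 array was left out. Sox10 was -0.41 as deposited, with and without the block, where another probe set was the brightest, and -0.04 without Atoh1-GFP replicate 1. The model of single probe sets was added after the data were seen. No detection call was used, so for Sox5 and Sox10, near the filter value, the signal over background is not known.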
